A study of Mus musculus with 6 samples.

Results

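Cytochromes P450 of the CYP2A and CYP2B subfamilies are haem enzymes of the endoplasmic reticulum that add oxygen to steroids, bile acids, nicotine, coumarin and many drugs. The 7 genes described here are Cyp2a4, Cyp2a5, Cyp2a12, Cyp2a22, Cyp2b9, Cyp2b10 and Cyp2b13, chosen by matching these names to the gene names in the deposited expression tables of mouse liver. All 7 had an entry in each of the 6 mice and all 7 were among the 18619 genes tested, of 47232 gene names used. The 3 laboratory mice were inbred C57BL/6 males aged 17 to 18 weeks, killed on arrival from the breeder. The 3 wild mice were adult house mice live-trapped at 2 sites in New South Wales and then housed for 3 months under standard husbandry and a natural light cycle. Of the wild mice, mouse 1 was a male and mice 2 and 3 were females. There was no laboratory female, and origin and sex were only partly separable. No mouse carried a transgene or was given a treatment, all were killed by cervical dislocation, and the RNA came from unfixed frozen liver, 1 library a mouse.

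Several of these enzymes are textbook cases of regulated liver genes. In the mouse, Cyp2a4, Cyp2b9 and Cyp2b13 are known to be expressed more in females, a difference set largely by the sex-specific rhythm of growth hormone release acting through STAT5b. Cyp2b10 is the standard target gene of the constitutive androstane receptor CAR, which responds to foreign chemicals, and Cyp2a5 responds to CAR, to NRF2 and to heavy metals. Cyp2a4 hydroxylates testosterone at the 15-alpha position, Cyp2a5 hydroxylates coumarin, and Cyp2a12 hydroxylates bile acids.

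Expression was deposited as FPKM, which scales the reads of each gene by its transcript length and by the size of the library, and as zFPKM, a score that centres and scales the log2 FPKM of each mouse by a mode and an SD fitted to that mouse. Levels are given here in FPKM, which is scaled to length and can be compared between genes, and tests were run on zFPKM. The fitted mode ranged from 0.491 to 2.51 on the log2 FPKM scale over the mice. The median difference in zFPKM over all tested genes was -0.01 between wild and laboratory mice, but 0.47 on the scale of log2(FPKM + 0.1). No read counts were used and the absolute depth is unknown. Xist was at 7.18 FPKM or more in the females and at 0.0506 or less in the males, as labelled. The 4 hepatocyte markers with a usable estimate (Apoa1, Ttr, Serpina1c and Hnf4a) summed to between 28910 and 40010 FPKM in laboratory mice and between 16560 and 17920 FPKM in wild mice, without overlap, whereas the kidney markers summed to 0.0631 FPKM or less in any mouse. The hepatocyte sum is weighted to the most abundant of its 4 genes. Hnf4a alone did not pass between wild and laboratory mice (0.06 in zFPKM, adjusted p = 0.819, limma). Fewer cells of a type and less RNA per cell cannot be told apart in whole liver.

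The 7 genes lie in a single cluster of 1139 kb on mouse chromosome 7 (GRCm38). Their proximal promoters are shown because near-identical pairs of them differed widely in expression in some of the mice, though not in all. The sequences are those of the reference genome, and whether the wild mice carry the same ones was not tested. In genome order, Cyp2b10 spans chr7:25897658-25926624, Cyp2b13 chr7:26061388-26096197, Cyp2b9 chr7:26173350-26210661, Cyp2a4 chr7:26307192-26315088, Cyp2a5 chr7:26835339-26843264, Cyp2a22 chr7:26931631-26939413 and Cyp2a12 chr7:27029090-27036818. All are annotated as protein-coding, and only Cyp2a22 is on the minus strand. The 120 bases before the RefSeq start site (GRCm38.p6) of 5 of them follow, 5′ to 3′, with TTGCATAA, TTGTATAA and TATAAA in capitals. These windows lie at chr7:26307072-26307191 for Cyp2a4, chr7:26835219-26835338 for Cyp2a5, chr7:25897538-25897657 for Cyp2b10, chr7:26173289-26173408 for Cyp2b9 and chr7:26061375-26061494 for Cyp2b13, all on the plus strand.
Cyp2a4: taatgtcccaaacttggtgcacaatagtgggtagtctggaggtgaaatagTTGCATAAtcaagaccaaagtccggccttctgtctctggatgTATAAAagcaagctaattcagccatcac
Cyp2a5: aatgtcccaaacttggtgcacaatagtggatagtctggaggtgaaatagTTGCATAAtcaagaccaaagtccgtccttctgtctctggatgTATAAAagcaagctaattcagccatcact
Cyp2b10: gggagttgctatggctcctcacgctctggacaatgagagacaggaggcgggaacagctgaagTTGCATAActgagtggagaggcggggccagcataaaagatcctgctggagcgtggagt
Cyp2b9: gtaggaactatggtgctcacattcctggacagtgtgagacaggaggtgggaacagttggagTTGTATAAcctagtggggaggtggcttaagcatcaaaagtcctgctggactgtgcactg
Cyp2b13: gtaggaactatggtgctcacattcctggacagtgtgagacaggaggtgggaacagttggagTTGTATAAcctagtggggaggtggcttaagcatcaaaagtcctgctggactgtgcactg

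Cyp2a4 and Cyp2a5 differed at 4 of 249 aligned bases of the 250 bases before their starts, an identity of 98.4%. Cyp2b9 and Cyp2b13 were closer still, with 2 differences in 250 bases (99.2% identity) and 0 in the 120 bases printed. Cyp2a12 and Cyp2a22 shared 90.0% of 239 aligned bases, and Cyp2b10 shared 75.8% of 240 aligned bases with Cyp2b9. The octamer TTGCATAA, a sequence of the kind bound by C/EBP and PAR bZIP factors, occurs in Cyp2a4, Cyp2a5 and Cyp2b10, 3 of the 7 members, and in 0.694% of 32851 mouse promoters of the same 250 bases on either strand. Cyp2b9 and Cyp2b13 hold TTGTATAA instead, between 59 and 52 bases before the start, a sequence found in 0.536% of promoters. In both genes this match lies inside the gene span given above, because the RefSeq start used here falls within the span. A TATAAA box is present in all 4 Cyp2a promoters, in none of the 3 Cyp2b promoters and in 12.4% of all promoters. CAAAGTCC, a core that HNF4A can bind, is in Cyp2a4 and Cyp2a5 and in 1.2% of promoters, and the STAT5 motif TTCNNNGAA is in 0 of the 7 and in 7.02% of promoters. None of these matches overlapped another. The motifs were picked after the sequences had been read, and a match describes the letters only.

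The transcripts are similar enough that reads of 100 bases cannot always be assigned. Of all 100-base windows of the longest coding transcript, 11.2% in Cyp2a4, 14.4% in Cyp2a5, 6.83% in Cyp2a12, 6.36% in Cyp2a22, 9.29% in Cyp2b13 and 1.18% in Cyp2b9 occur exactly in a transcript of another gene, and 0 in Cyp2b10. The partners were each other within the pairs Cyp2a4 and Cyp2a5, Cyp2a12 and Cyp2a22, and Cyp2b9 and Cyp2b13, together with the pseudogene Cyp2a21-ps for Cyp2a4 and Cyp2a5 and Gm45225 for both of Cyp2b9 and Cyp2b13. Most shared windows of Cyp2b13, 151 of 165, were shared with Gm45225, whose level is not given here. Cyp2b9 had 21 shared windows. How the authors' counting divided such reads is not given in the sources used here, so the levels within each pair carry that uncertainty. Overlapping entries can share reads as well, namely the antisense lncRNA Gm42375 at the start of Cyp2a4, LOC115486454 inside Cyp2a12, LOC115486453 at Cyp2a22 and Rnf170-ps inside Cyp2b13. The libraries were stranded, but whether strand was used in counting is not given.

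Wild mice expressed 6 of the 7 genes more highly than laboratory mice, and Cyp2a12 at a similar level. In zFPKM the smallest differences were in the genes already abundant in laboratory liver, Cyp2a12 and Cyp2a5. Cyp2b9 and Cyp2b13 were listed at 0 in every laboratory mouse. Within the wild mice, both females had more of every member than the male except Cyp2b10, which was highest in the male. With limma and Benjamini-Hochberg adjustment over all tested genes, 6 members passed an adjusted p of 0.05 with higher zFPKM in wild mice, and none with lower, where 7.28% of tested genes passed as higher and 7.17% as lower. The limma values took the spread of each gene largely from genes of similar expression. Their standard errors and adjusted p-values, here and below, therefore do not measure each gene's own spread between mice. Two-sided exact permutation tests gave p = 0.1 for these 6, the smallest p that 3 mice against 3 allow. For these 6 genes every wild mouse lay above every laboratory mouse, in FPKM and in zFPKM. In zFPKM this held for 14.1% of tested genes, and the share in FPKM was not computed. Cyp2b9 and Cyp2b13 passed the filter on low values only through the wild mice and so had to differ. The count was 6 with any single mouse left out, but 3 without the trend of variance with expression in limma (Cyp2b9, Cyp2b10 and Cyp2a22), 0 without the filter on low values and 0 in a fit to the 4 males alone.

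**Figure D1:**
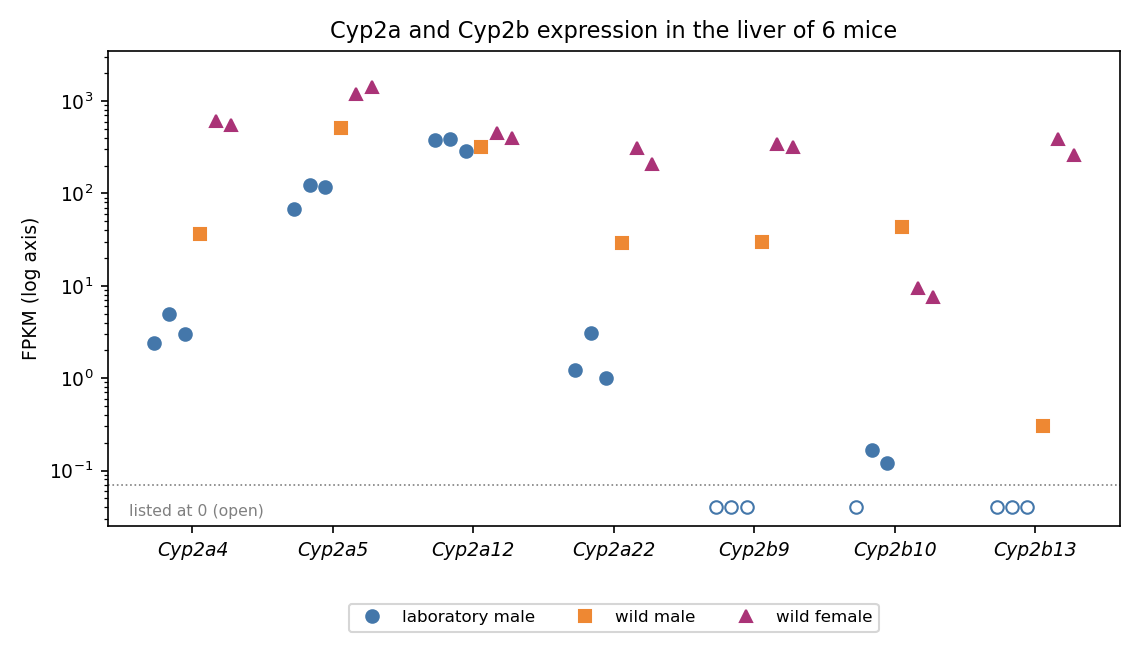
FPKM of the 7 genes (log axis) in each mouse, with laboratory males as circles, the wild male as squares and wild females as triangles; open symbols below the dotted line are entries listed at 0. Cyp2a12 is the only gene whose groups overlap, and Cyp2b10 the only one with the wild male, at 43.4 FPKM, above both females.

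Cyp2a4, the female-predominant steroid 15-alpha-hydroxylase, was at 2.37, 4.94 and 3.03 FPKM in laboratory mice 1 to 3. In the wild male it was at 36.3 FPKM, and in wild females 2 and 3 at 613 and 546 FPKM. The groups did not overlap, and the females stood far above the wild male. The means were 3.45 ± 1.33 FPKM (SD, n = 3) and 399 ± 316 FPKM (SD, n = 3), a ratio of 116. The difference in zFPKM was 1.85 (standard error 0.152, adjusted p = 3.93e-31, limma). Its own SD of zFPKM over the wild mice was 0.894, and without the trend it did not pass (adjusted p = 0.0598, limma).

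Cyp2a5, the coumarin 7-hydroxylase, was the most abundant member in every wild mouse. It was at 67.2, 124 and 118 FPKM in the laboratory mice, at 509 FPKM in the wild male, and the females were at 1177 and 1423 FPKM. The means of 103 ± 31.1 and 1036 ± 473 FPKM (SD, n = 3 each) stood in a ratio of 10.1. The difference in zFPKM was 0.85 (standard error 0.106, adjusted p = 1.33e-13, limma), against 1.85 for Cyp2a4, whose promoter window is shown above. Without the trend Cyp2a5 did not pass (adjusted p = 0.0782, limma). The ratio of Cyp2a5 to Cyp2a4 in FPKM was 28.3, 25.1 and 38.8 in the laboratory mice, 14.0 in the wild male and only 1.92 and 2.60 in wild females 2 and 3, so this ratio did not overlap between the sexes or between the groups.

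Cyp2a12, the bile acid hydroxylase, was the most abundant member in every laboratory mouse and had the smallest difference. It was at 380.2, 388 and 284 FPKM in laboratory mice, while the wild male had 317 FPKM and the wild females 453 and 396 FPKM. The groups overlapped, with means of 351 ± 57.7 and 388.5 ± 68.6 FPKM (SD, n = 3 each). The difference in zFPKM was -0.21 (95% confidence interval -0.41 to -0.00446, adjusted p = 0.182, limma) and the exact permutation p was 0.5. On the scale of log2(FPKM + 0.1) the difference had the opposite sign, 0.15 (adjusted p = 0.593, limma).

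Cyp2a22, whose transcript is 96.5% identical to that of Cyp2a12, had a different pattern. It was at 1.24, 3.11 and 1.01 FPKM in laboratory mice, while the wild male had 29.0 FPKM and the wild females 313 and 209 FPKM. Every wild mouse was above every laboratory mouse, with means of 1.79 ± 1.15 and 184 ± 144 FPKM (SD, n = 3 each) and a ratio of 103. The difference in zFPKM was 1.93 (standard error 0.174, adjusted p = 7.49e-26, limma). The ratio of Cyp2a12 to Cyp2a22 ranged from 125 to 307 over the laboratory mice and stood at 10.9 for wild mouse 1, the male, with 1.45 and 1.89 for the 2 females.

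Cyp2b9 and Cyp2b13, both known as female-predominant, were listed at 0 in laboratory mice 1, 2 and 3, with the estimates marked as successful in laboratory mice 2 and 3 and no such mark given for laboratory mouse 1. Cyp2b9 was at 29.7 FPKM in the wild male, and the females were at 341 and 319 FPKM. Cyp2b13 was at 0.303 FPKM in the wild male, with the authors' confidence bounds at 0.0892 and 0.516, and at 387 and 262 FPKM in the wild females. The pair was thus at nearly equal levels in the females, with ratios of Cyp2b9 to Cyp2b13 of 0.883 and 1.21, and at a ratio of 98.0 in the male. The differences in zFPKM between wild and laboratory mice were 4.81 for Cyp2b9 (adjusted p = 5.46e-42, limma) and 3.98 for Cyp2b13 (adjusted p = 9.11e-20, limma). Both values depend on the floor of -3 given to entries at 0, and no fold is given against a group listed at 0. Without the trend Cyp2b9 passed (adjusted p = 0.00148) and Cyp2b13 did not (adjusted p = 0.0592, limma).

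Cyp2b10, the CAR target, was listed at 0 in laboratory mouse 1 and was at 0.169 and 0.122 FPKM in laboratory mice 2 and 3. It was at 43.4 FPKM in the wild male, and the females were at 9.42 and 7.62 FPKM. All wild mice were above all laboratory mice, and the wild male had 5.09 times the mean of the females. The difference in zFPKM was 2.75 (standard error 0.355, adjusted p = 1.31e-12, limma).

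**Figure D2:**
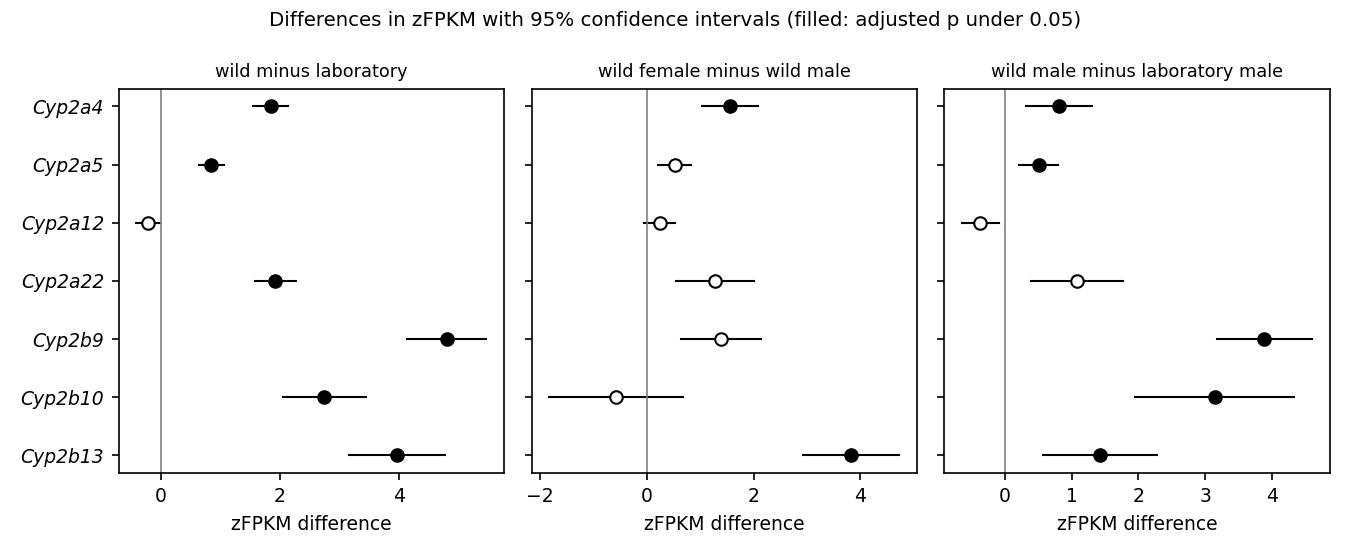
Differences in zFPKM from limma with unadjusted 95% confidence intervals for the 7 genes in 3 comparisons (wild minus laboratory, wild female minus wild male, wild male minus laboratory male); filled points had an adjusted p under 0.05. In the left panel 6 points are filled and to the right of 0, in the middle panel Cyp2a4 and Cyp2b13, and in the right panel all but Cyp2a12 and Cyp2a22.

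Sex could be compared only within the wild mice, as 2 females against 1 male, in a fit of 3 groups where the lone male was assumed to vary like the others. Cyp2a4 and Cyp2b13 were higher in the females, and the other 5 members did not pass. Higher zFPKM in females was called in 0.317% of tested genes and lower in 0.0591%. The median zFPKM difference over all tested genes was 0.38 in this comparison, above the difference of Cyp2a12 given below. The difference was 1.55 for Cyp2a4 (adjusted p = 0.0117, limma) and 3.83 for Cyp2b13 (adjusted p = 7.09e-04, limma). The mean of the females over the male, in FPKM, was 16.0 for Cyp2a4, 11.1 for Cyp2b9, 9.02 for Cyp2a22, 2.55 for Cyp2a5, 1.34 for Cyp2a12 and 0.196 for Cyp2b10. The differences that did not pass were 1.39 for Cyp2b9 (95% confidence interval 0.63 to 2.15, adjusted p = 0.148), 1.28 for Cyp2a22 (adjusted p = 0.167), 0.52 for Cyp2a5 (adjusted p = 0.187, and 0.05 with adjusted p = 0.953 with a median of 0 in each mouse), 0.24 for Cyp2a12 (adjusted p = 0.509) and -0.58 for Cyp2b10 (95% confidence interval -1.84 to 0.68, adjusted p = 0.583), all from limma. On log2(FPKM + 1) Cyp2b9 (3.43, adjusted p = 0.00222) and Cyp2b10 (-2.23, adjusted p = 0.0359) passed in limma as well. Without wild mouse 2 or without wild mouse 3, neither Cyp2a4 (adjusted p = 0.866 and 0.664) nor Cyp2b13 (adjusted p = 0.810 and 0.664) passed in limma, and with a floor of -5 in place of -3 they were at adjusted p = 0.0849 and 0.0520. The number of members passing was 4 without laboratory mouse 1 or 2, Cyp2a22 and Cyp2b9 being added, and 6 without laboratory mouse 3, all but Cyp2b10. In that last fit 4869 of all tested genes were called higher in females, against 59 with every mouse.

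Origin could be compared within males as 1 wild male against 3 laboratory males in the same fit. Here 5 members were higher in the wild male, at 1.34% of tested genes called higher and 6.04% called lower. Of the 5, Cyp2b9 and Cyp2b13 passed the filter on low values only through the wild mice and were at the floor in every laboratory mouse. The size of both differences depends on the floor, and that of Cyp2b9 was 5.88 with a floor of -5. The median zFPKM difference over all tested genes was -0.28. Cyp2b9 differed by 3.88 (adjusted p = 7.47e-05), Cyp2b10 by 3.14 (adjusted p = 0.00598), Cyp2b13 by 1.42 (adjusted p = 0.0458), Cyp2a4 by 0.82 (adjusted p = 0.0482) and Cyp2a5 by 0.51 (adjusted p = 0.0408), all from limma. Cyp2a22 differed by 1.08 (adjusted p = 0.0576) and Cyp2a12 by -0.37 (adjusted p = 0.0991) in limma, neither past the threshold. In FPKM the wild male had 7.35 times the highest laboratory value for Cyp2a4, 4.11 times for Cyp2a5, 9.32 times for Cyp2a22 and 0.816 times for Cyp2a12. The comparison rests on 1 wild male and shares its mice with the others. Without wild mouse 2 or without wild mouse 3 no member passed in limma (lowest adjusted p = 0.182 and 0.186, both Cyp2b9), and without laboratory mouse 3 all 7 passed, Cyp2a12 with a difference of -0.42 (adjusted p = 0.00645). Without laboratory mouse 1, Cyp2a22 passed (adjusted p = 2.77e-04) and Cyp2a5 did not (adjusted p = 0.0770), and without laboratory mouse 2 Cyp2a22 was added (adjusted p = 5.16e-05, limma). Of all tested genes, 871 were higher and 7206 lower without laboratory mouse 3, against 249 and 1125 with every mouse. With a floor of -5 only Cyp2b9 and Cyp2b13 passed. The Cyp2b13 value sets 0.303 FPKM against entries at 0 and depends on the floor, and on log2(FPKM + 1) its difference was 0.38 and did not pass (adjusted p = 0.316, limma).

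The sum of Cyp2a4 and Cyp2a5 depends less than either gene alone on how the reads they share were divided between them. It is not free of that division, because FPKM scales each gene by its own length, and reads shared with Cyp2a21-ps remain unresolved. It was 69.6, 129 and 121 FPKM in laboratory mice, while the wild male had 545 FPKM and the wild females 1790 and 1970 FPKM. In zFPKM the sum was 0.97 higher in wild mice (adjusted p = 4.16e-18), 0.66 higher in wild females than in the wild male (adjusted p = 0.0719) and 0.53 higher in the wild male than in laboratory males (adjusted p = 0.0313, limma). The sum of the 3 Cyp2b genes was 0, 0.169 and 0.122 FPKM in laboratory mice and 73.4, 737 and 589 FPKM in wild mice. Cyp2b10 shares no 100-base window with Cyp2b9 or Cyp2b13. The latter pair, part of the sum, passed the filter on low values only through the wild mice. The sum was set to the floor in laboratory mouse 1, and its differences from laboratory mice depend on that floor. It was 4.24 higher in wild mice (adjusted p = 1.10e-66) and 3.42 higher in the wild male than in laboratory males (adjusted p = 0.00195), and its difference between the wild sexes of 1.23 did not pass (adjusted p = 0.419, limma).

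Together the 7 genes summed to 451, 520.2 and 406 FPKM in laboratory mice, while the wild male had 964 FPKM and the wild females 3293 and 3164 FPKM. They made up 7.90%, 7.82% and 8.16% of the summed FPKM of 98 P450 genes in laboratory mice, 4.74% of it in the wild male, and 14.8% and 15.7% in females 2 and 3. The composition of the sum differed as well. Cyp2a12 alone gave 84.3%, 74.6% and 70.0% of it in laboratory mice, 32.8% of it in the wild male, and 13.8% and 12.5% in females 2 and 3. At least 100 FPKM was reached by 1 or 2 members in each male mouse, wild or laboratory, and by 6 in each female.

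**Figure D3:**
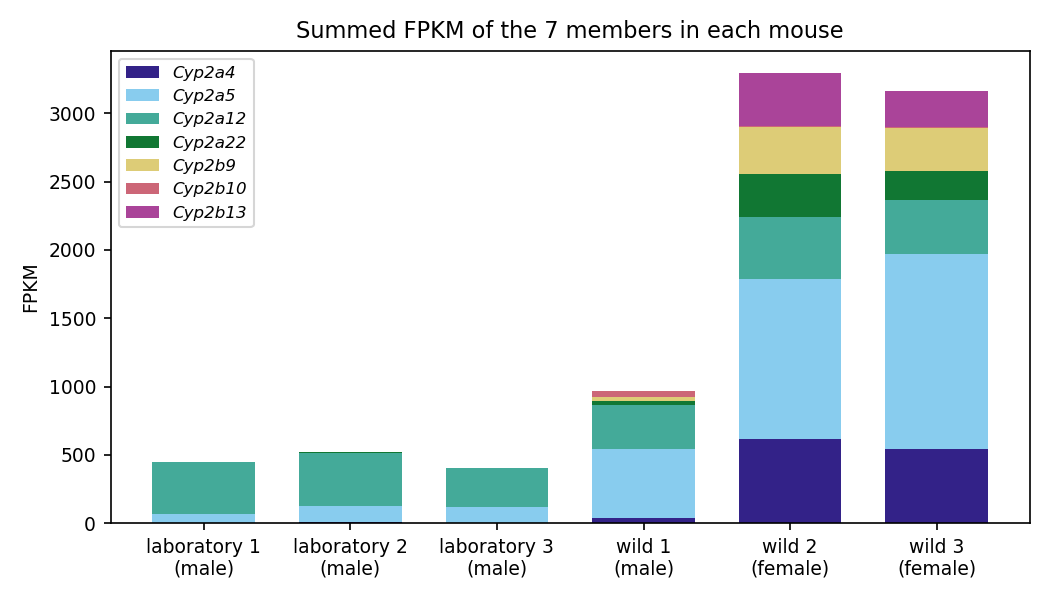
Summed FPKM of the 7 genes in each mouse, stacked by gene. The laboratory mice stand between 406 and 520.2 FPKM, mostly Cyp2a12, and the wild females at 3293 and 3164 FPKM, with every member but Cyp2b10 visible.

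Within the window from 200 kb before the first to 200 kb after the last member, 53 entries are listed, of which 17 are P450 genes or pseudogenes. Beside the members 21 entries were tested, 4 P450 entries and 17 others. The 2 that were higher in wild mice are both P450 entries, and of the 17 others 0 were higher and 2 lower, where 7.28% of all tested genes were higher and 7.17% lower. Cyp2g1, a P450 of the olfactory mucosa that lies just before Cyp2a5, was at 0.20, 0.286 and 0.279 FPKM in laboratory mice and at 0.676, 9.77 and 13.0 FPKM in wild mice (difference in zFPKM 1.17, adjusted p = 0.00546, limma). The olfactory mucosa list of Cyp2g1, Omp and Bpifb3 summed to 13.02 FPKM at most, in wild mouse 3. Cyp2g1 alone was at 12.98 FPKM there, and Bpifb3 was at 0 in all mice. Cyp2a21-ps, which shares 100-base windows with Cyp2a4 and Cyp2a5, was at 1.82, 3.83 and 2.32 FPKM in laboratory mice and at 24.5, 59.0 and 72.3 FPKM in wild mice (difference 1.21, adjusted p = 2.26e-09, limma). Cyp2f2, a P450 of airway and liver at the far end of the cluster, was abundant in both groups and did not pass, at 425, 437 and 262 FPKM against 729, 232 and 327 FPKM (difference -0.21, adjusted p = 0.165, limma). Cyp2s1 was at 0.541 FPKM or less in any mouse, and Cyp2b19, known from skin, and Cyp2b23 were at 0 in all. Cyp2t4 and the pseudogenes Cyp2b26-ps, Cyp2b27-ps and Cyp2b28-ps were at 0.107 FPKM or less.

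**Figure D4:**
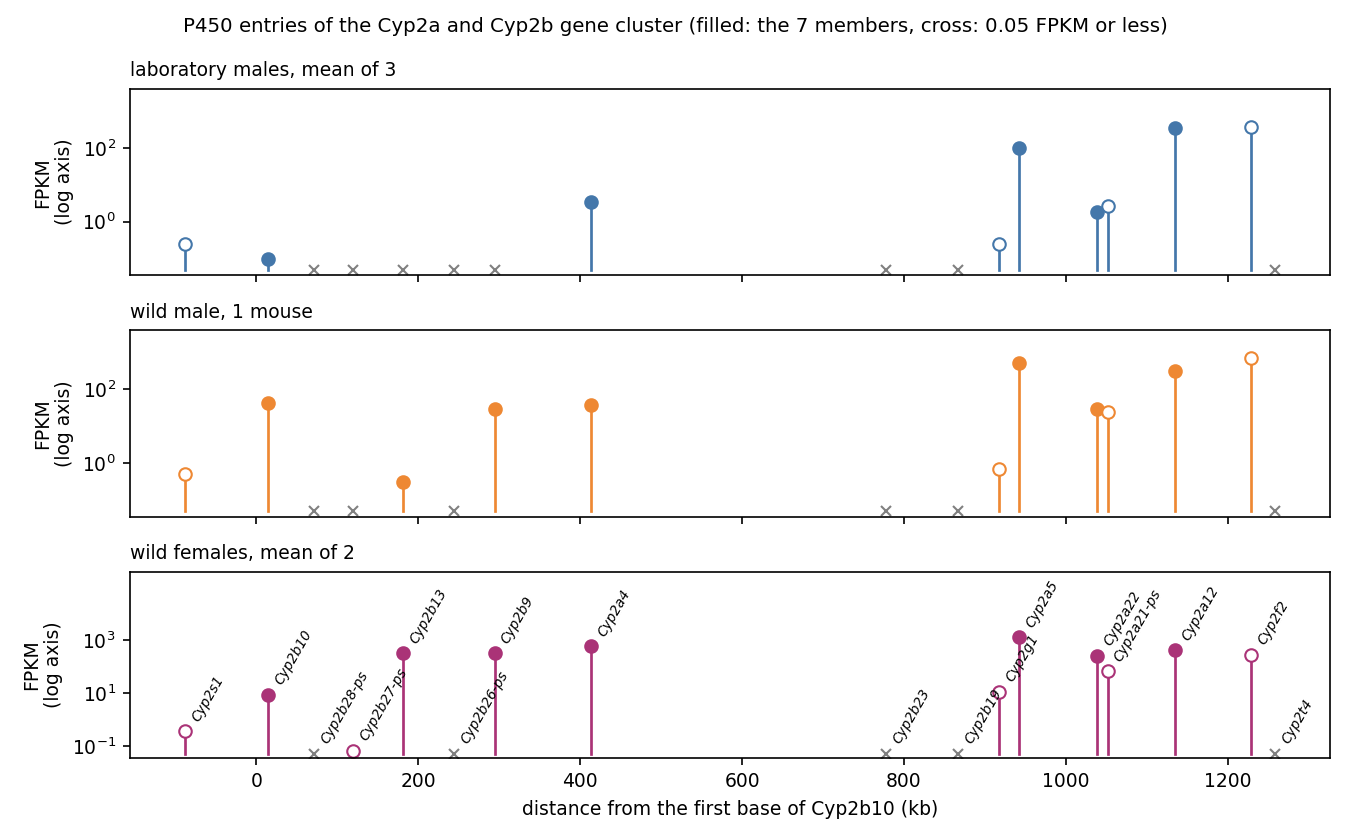
FPKM (log axis) of the 17 P450 entries of the cluster against distance from the first base of Cyp2b10 in kb, for laboratory males (mean of 3), the wild male and wild females (mean of 2); filled points are the 7 members and crosses are entries at 0.05 FPKM or less. In laboratory males the Cyp2b end at the left is nearly silent while Cyp2a5, Cyp2a12 and Cyp2f2 at the right are abundant, and in wild females Cyp2b13, Cyp2b9 and Cyp2a4 reach levels near that of Cyp2a12.

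The counts of the lists that follow stand beside 7.28% of all tested genes called higher in wild mice and 7.17% called lower, and a count near those shares is no result about its list. Of 14 tested xenobiotic receptors and partners, 1 was higher and 0 were lower in wild mice, with a median difference in zFPKM of 0.06. This was Rxra, the retinoid X receptor that pairs with CAR and PXR, at 13.7, 18.4 and 16.5 FPKM in laboratory mice and 73.1, 76.5 and 88.8 FPKM in wild mice (difference 0.55, adjusted p = 0.00228, limma). Cebpa, the most abundant of the list (-0.25, adjusted p = 0.164), and Cebpb, the lowest (-0.38, adjusted p = 0.0821), did not pass in limma. Nr1i3, which encodes CAR and was picked after its values were seen, was at 20.7, 26.9 and 46.6 FPKM in laboratory mice and 39.7, 53.3 and 84.5 FPKM in wild mice, and the difference of 0.05 in zFPKM did not pass (adjusted p = 0.869, limma).

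Other genes that CAR and PXR activate were higher in 16 of 24 cases and lower in 1, with a median difference of 0.57. One of the 16, Sult2a1, passed the filter on low values only through the wild mice and so had to differ. Sult2a1, a sulphotransferase of bile acids and steroids that is also female-predominant, was listed at 0 in the laboratory mice, at 0.254 FPKM in the wild male, and the females were at 982 and 675 FPKM (difference 4.25, which depends on the floor). Gstm1, a glutathione transferase and the most abundant of the list, did not pass (-0.16, adjusted p = 0.246, limma), and Cyp2c54 was lower (-0.68, adjusted p = 3.40e-07, limma). Of the 24 genes, 2 were higher and 0 lower in wild females than in the wild male. Cyp2c54 was one of the 2, at 23.0 FPKM in the male and at 167 and 185 FPKM in the females (difference 1.22, adjusted p = 0.00114, limma). Cyp2c29, another CAR target picked after its values were seen, was highest in the wild male, at 33.0, 59.5 and 43.9 FPKM in laboratory mice, while the wild male had 2763 FPKM and the wild females 1344 and 1129 FPKM (difference 1.55, adjusted p = 3.30e-44, limma). Its difference between wild females and the male did not pass (-0.41, adjusted p = 0.354, limma).

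The enzymes that supply P450 proteins with electrons and haem gave 4 higher and 1 lower of 15, with a median of 0.13. Cyb5b, a cytochrome b5 of the mitochondrial outer membrane, was highest by difference (0.58, adjusted p = 2.93e-04), whereas Cyb5a, the most abundant (-0.01, adjusted p = 0.980), and Ppox of haem synthesis (-0.36, adjusted p = 0.243) did not pass in limma.

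Genes known for sex bias in mouse liver, without the members, gave the medians furthest from 0 of the 9 lists. Of 20 other female-biased genes, 17 were higher and 0 lower in wild mice, with a median of 2.24. Sult2a1, Sult3a1 and A1bg passed the filter on low values only through the wild mice and so had to differ, which leaves 14 of the 17. In wild females against the wild male 10 were higher and 0 lower, with a median of 2.12, where 0.317% of tested genes were higher. In the wild male against laboratory males 10 were also higher and 0 lower, with a median of 1.38, where 1.34% of tested genes were higher. Both comparisons use the wild male. The second counts Sult2a1, Sult3a1 and A1bg, at 0.254, 0.438 and 0.459 FPKM in the wild male against entries at 0 in laboratory mice. Their differences there depend on the floor. Of 17 male-biased genes, 1 was higher and 13 were lower, with a median of -1.04. In wild females against the wild male 5 were lower and 1 higher, Ugt2b1 (1.33, adjusted p = 0.00606, limma), and in the wild male against laboratory males 4 were lower and 0 higher, where 0.0591% and 6.04% of tested genes were lower in these comparisons. Sult3a1, a sulphotransferase, was listed at 0 in laboratory mice and was at 0.438 FPKM in the wild male, and the females were at 2076 and 1932 FPKM (difference 4.63, which depends on the floor). Cyp2d9, a male-predominant steroid 16-alpha-hydroxylase, was at 706, 789 and 528 FPKM in laboratory mice, while the wild male had 655 FPKM and the wild females 43.6 and 44.3 FPKM (difference -1.13, adjusted p = 2.43e-23, limma). Serpina4-ps1 had the lowest value of its list (-4.79, adjusted p = 3.40e-69) and was also lower in the wild male than in laboratory males (-3.81, adjusted p = 3.80e-05), and Ugt2b38 was higher (0.44, adjusted p = 0.0284), while Cyp2c40 among the female-biased genes did not pass (0.10, adjusted p = 0.706, limma).

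**Figure D5:**
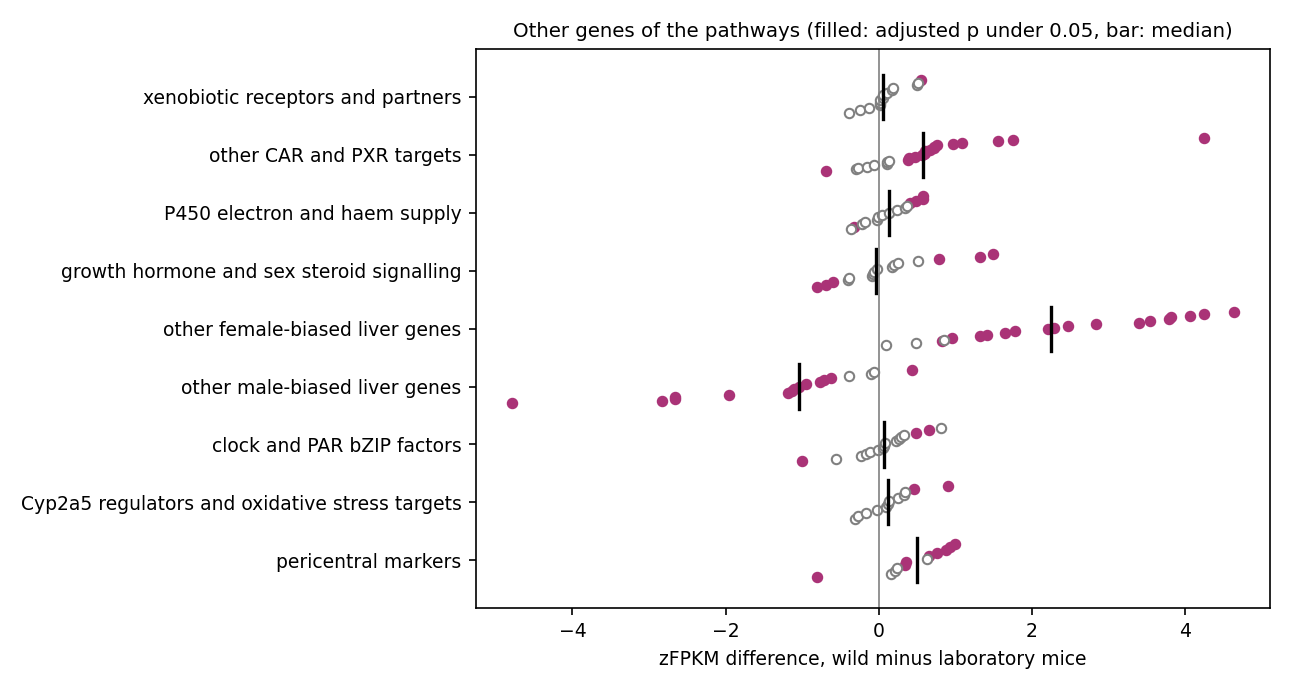
Differences in zFPKM between wild and laboratory mice for the tested genes of 9 lists, each gene a point (filled with an adjusted p under 0.05) and each median a bar. The female-biased genes lie furthest to the right, with a median of 2.24, and the male-biased genes furthest to the left, with a median of -1.04.

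Among 16 genes of growth hormone and sex steroid signalling, 3 were higher and 3 lower, with a median of -0.04. Ghr, the growth hormone receptor, did not pass (-0.02, adjusted p = 0.936), and Socs2, a feedback inhibitor that STAT5 induces, was lower (-0.81, adjusted p = 8.22e-04, limma). Among 16 clock and PAR bZIP genes, 2 were higher and 1 lower, with a median of 0.07. The lower gene was Dbp, a daily-cycling activator known to act on the Cyp2a4 and Cyp2a5 promoters. It was at 9.62, 9.42 and 12.1 FPKM in laboratory mice and at 0.644, 0.867 and 22.3 FPKM in wild mice (difference -1.0, adjusted p = 1.18e-04, limma). The groups overlapped, with wild mouse 3 above every laboratory mouse. The time of day at which the mice were killed is not given in the sources used here. Nr1d1 (-0.17, adjusted p = 0.518) and Npas2 (0.81, adjusted p = 0.172) did not pass in limma.

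Of 12 Cyp2a5 regulators and oxidative stress targets, 2 were higher and 0 lower, with a median of 0.13. Nqo1, a quinone reductase induced by NRF2, was at 2.13, 1.40 and 2.77 FPKM in laboratory mice and at 15.1, 24.8 and 23.1 FPKM in wild mice (difference 0.90, adjusted p = 2.37e-04, limma). Gclc (-0.17, adjusted p = 0.448) and Mafg (-0.31, adjusted p = 0.312) did not pass in limma. Cyp2a5, like many P450 genes, is expressed mainly near the central vein, and of 12 pericentral markers 7 were higher and 1 was lower, with a median of 0.49. Cyp2e1, the ethanol-inducible P450, was at 268, 519 and 242 FPKM in laboratory mice and at 3505, 3229 and 3650 FPKM in wild mice (difference 0.93, adjusted p = 4.60e-21, limma). Oat, an enzyme of ornithine metabolism, was higher by 0.99 (adjusted p = 2.10e-15), and Ces3a, a carboxylesterase, was lower (-0.81, adjusted p = 1.34e-12, limma).

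Markers of other cells moved in places with the groups. The 4 stellate cell markers summed to between 25.2 and 37.2 FPKM in laboratory mice and between 70.9 and 127 FPKM in wild mice, without overlap, and the 4 intestinal markers, of which liver expresses Mttp, to between 58.8 and 75.3 FPKM and between 100.2 and 132 FPKM. The biliary, Kupffer, endothelial, erythroid and pancreatic sums overlapped between the groups. The kidney markers Umod, Kap and Slc12a1, the pancreatic Prss2 and the lung marker Sftpc were at 0 in all mice. The part of cell composition in the differences above was not tested.

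Among the members themselves, profiles over the 6 mice were nearest for Cyp2a4 and Cyp2a22, at a Euclidean distance of 0.411 in mean-centred zFPKM, although their transcripts were 73.2% identical. Cyp2a4 and Cyp2a5, at 98.3% identity of transcript, were 1.55 apart, Cyp2a12 and Cyp2a22, at 96.5%, were 2.84 apart, and Cyp2b9 and Cyp2b13, at 91.9%, were 2.24 apart. Among the other tested genes, the nearest to Cyp2b13 were Sult3a2 at 0.528, Sult2a1 at 0.555 and A1bg at 0.565, all listed at 0 in the laboratory mice and under 1 FPKM in the wild male. The nearest to Cyp2a22 were Acot3 at 0.544, Gm9722 at 0.578 and Dct at 0.591, and those near Cyp2a4 included LOC115486461 at 0.485 and Abhd2 at 0.540. Acot3, an acyl-CoA thioesterase, was at 0.0983, 0.105 and 0.164 FPKM in laboratory mice and at 5.30, 32.9 and 25.9 FPKM in wild mice. Genes near Cyp2a5 included Gm5182 at 0.178 and Mavs at 0.248, and the nearest to Cyp2a12, whose profile was nearly flat, were Slc30a9 at 0.0386, Scaf4 at 0.0402 and Apex2 at 0.0574. The nearest genes were furthest for Cyp2b9, with Gm12222 at 1.65, Cck at 1.67 and Hao2 at 1.77, and for Cyp2b10, with 1810053B23Rik at 0.992, Npm3-ps1 at 1.05 and LOC115488209 at 1.11. The distances are descriptions over 6 mice that share the group difference.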

How the data were processed

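The deposited FPKM were calculated by the authors with the Tuxedo pipeline after alignment of 100-base single reads to a masked genome with kalign. The authors turned the FPKM of each mouse into the deposited zFPKM score with the R package zFPKM. The genome build GRCm38.p6 is from the submitters' processing notes. How multi-mapped reads were treated is not given in the sources used here. Of 47256 gene names listed once in every mouse, 24 with a failed estimate were left out. Failures are not marked for laboratory mouse 1. A gene was tested if its zFPKM exceeded -3 in 3 or more of the 6 mice, lower values and entries at 0 were set to -3, and limma 3.58.1 in R 4.3.3 (lmFit, eBayes with trend, Benjamini-Hochberg adjustment over 18619 genes, threshold 0.05) compared wild with laboratory mice, and, with 3 groups, wild females with the wild male and the wild male with laboratory males. The files hold no counts, so the edgeR analysis of the study's methods was not repeated. The exact permutation test was two-sided, on log2 FPKM or, with entries at 0, on zFPKM. The depth of the libraries is unknown, and the number of mice limits the precision. With the trend, limma took the spread of each gene largely from genes of similar expression, not from its own values. For Cyp2b13 the SD of zFPKM over the wild mice was 2.21, while the standard error of wild minus laboratory was 0.409. The very small adjusted p-values therefore do not measure each gene's own spread between 3 mice and 3. Procedures were tested on simulated data. Alternatives were other floors, filters, scales, normalizations, models and each mouse left out.

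The members and lists were chosen with earlier results of these data known. Named genes were the members, the other P450 genes of the cluster, from each list the gene with the highest mean FPKM and those with the largest differences up and down, and the 3 nearest profiles of each member. Nr1i3 and Cyp2c29 were added after their values were seen. Promoters were taken from RefSeq (GRCm38.p6), where all 7 members matched by symbol, and transcripts from GENCODE on GRCm38. Deposited start positions are 0-based, and after adding 1 the positions of all members match RefSeq. RefSeq places the promoter starts of Cyp2b9, Cyp2b13 and Cyp2a22 inside the gene spans given. Marker lists of lung gave under 1 FPKM in any mouse. A few genes that these rules select are not reported here.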

Additional observations from a re-analysis of the deposited data

How the results depend on the processing

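Of the 7 members, 6 differed between laboratory and wild mice in the main analysis, 2 between wild females and the wild male and 5 between the wild male and laboratory males. Without a filter on low values the counts were 0, 2 and 2, without the trend in limma 3, 1 and 2, and with a floor of -5 they were 6, 0 and 2. A fit to males only called 0 of 7, at adjusted p between 0.166 and 0.380, and the count between the wild sexes was 4 on log2(FPKM + 1). Leaving out each mouse in turn gave 6 throughout for laboratory against wild mice, 0 to 6 for females against the male and 0 to 7 for the wild male against laboratory males, with 0 in both without wild mouse 2 or wild mouse 3. Without wild mouse 1 these 2 contrasts could not be fitted. Between the wild sexes, the members passing without the filter were Cyp2b9 and Cyp2b13, and without the trend Cyp2b13 alone, so Cyp2a4 passed in neither. The cause of these changes was not tested. All members kept the sign of their differences in every alternative except Cyp2a12 and, in a sum, Cyp2b10. For Cyp2a12 the difference between wild and laboratory mice was 0.15 on log2(FPKM + 0.1) and 0.15 on log2(FPKM + 1), and the difference between wild females and the male was -0.24 with a median of 0 in each mouse. The sum of the 3 Cyp2b genes gave 1.23 between females and male, where Cyp2b10 alone gave -0.58. Cyp2a4 (adjusted p = 0.0556) and Cyp2b10 (adjusted p = 0.370) did not pass with a floor of -20 in limma, and Cyp2b13 did not on log2(FPKM + 1) (adjusted p = 0.0636).

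Over all tested genes, 1355 were higher and 1335 lower in wild mice, but 7065 and 1524 on log2(FPKM + 0.1), 6858 and 1384 on log2(FPKM + 1), 3804 and 3478 after quantile normalization and 2585 and 2685 with a median of 0 in each mouse. On log2(FPKM + 0.1) with a median of 0 in each mouse, chosen after seeing the data, they were 3465 and 5352, and 6 members passed. The counts were 578 and 618 with a floor of -20, 8 and 15 without a filter, 352 and 443 without the trend and 0 and 0 with males only. Between the wild male and laboratory males, 249 were higher and 1125 lower, but 5025 and 1015 on log2(FPKM + 0.1) and 2175 and 2064 after quantile normalization. No paired analysis was possible because nothing in the labels pairs a laboratory mouse with a wild mouse.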

Other observations

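The summed FPKM of 98 P450 genes ranged from 4980 to 6649 in laboratory mice and from 20150 to 22200 in wild mice. The sum is weighted to the most abundant of them. As a share of the summed FPKM of all genes used, the 7 Cyp2a and Cyp2b genes made up between 0.0636% and 0.0801% in laboratory mice, 0.171% in wild mouse 1, and 0.578% and 0.579% in females 2 and 3. Gm29920, a pseudogene that lies between Cyp2b13 and Cyp2b26-ps and did not pass the filter on low values, was listed at 0 in all 4 males and at 1.51 and 3.25 FPKM in the wild females. It was chosen after its values were seen.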
